A study of Arabidopsis thaliana with 7 samples.

Results

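Among the transcripts lower in wild-type rosettes after infection with Pst-DC3000, 51 probe sets were higher again in infected plants lacking both WRKY18 and WRKY40. These probe sets lay there at 0.555 to 2.49 times the signal of mock-treated wild type. They were chosen by their measured signals on 3 arrays, after raising every signal below 22 to 22. The Col-0 Pst signal had to be at least 2-fold below the Col-0 MgCl2 signal. The double mutant Pst signal had to be at least 2-fold above the Col-0 Pst signal, and above 0.5 of the Col-0 MgCl2 signal. Of 22746 non-control probe sets, 277 met the first condition, and 51 of these (18.4%) met all of them. The values on these 3 arrays are therefore a description and support nothing by themselves. The arrays of wrky18, wrky40, wrky53 and wrky60 played no part in the choice.

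WRKY18, WRKY40 and WRKY60 are the group II-A members of the WRKY family, DNA-binding regulators that recognise W-box elements and are induced when Arabidopsis meets a pathogen. In Arabidopsis, WRKY18 and WRKY40 are known as partly redundant repressors of basal defence genes. WRKY53 is known as a regulator of leaf senescence and of defence. Pst-DC3000 is a virulent strain of Pseudomonas syringae that injects effector proteins and makes coronatine, a jasmonate mimic that lowers salicylic acid-dependent defence.

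Signals came from 7 one-colour ATH1 arrays, each with RNA of entire rosettes of Arabidopsis thaliana plants aged 14 days. The mutant arrays were a double T-DNA knockout of WRKY18 and WRKY40 and single T-DNA knockouts of WRKY18, WRKY40, WRKY53 and WRKY60, all after Pst-DC3000. Wild-type Col-0 was sampled after Pst-DC3000 and after MgCl2, the mock treatment. All plants had grown in soil treated with the insecticide imidacloprid. No mutant was sampled after mock treatment, the insertion sites and the number of plants per array are not given in the sources used here, and the time to harvest is not given either. Each group had 1 array, so no difference below has a replicate error, none was tested, and differences between genotypes and between single arrays or plants cannot be told apart. In whole rosettes, fewer cells of a type and less RNA per cell cannot be told apart. The leaf genes RCA (Rubisco activase) and LHCB4.1 (a light-harvesting protein) had signals of 2129 to 5865 on all arrays, and the 1 root marker with a named probe set, EXPA7, lay below 22 on all of them. No flower marker of the 4 listed had a named probe set.

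The wrky60 array stood apart from the others, and each result on it is given separately. Relative to the Col-0 Pst array, the median ratio of its 45 bacterial and phage control probe sets was 6.44-fold, against 0.698-fold to 1.21-fold on the other arrays. Signals below 22 made up 32.9% of its non-control probe sets, against 40.3% to 41.5% elsewhere. It was not used by the rule. The WRKY53 transcript read 3.07 in the wrky53 knockout and 107 in Col-0 Pst, which fits that label. No probe set is annotated singly to WRKY18, WRKY40 or WRKY60, and the other knockout labels were not checked in this way.

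The platform annotation gave 1 gene for 29 of the 51 members, several genes for 1 and no gene for 21. The 29 named members hold enzymes of oxidation and conjugation, a few proteins of signalling or metal binding, 2 chloroplast-encoded genes and 10 genes for which no role is given here. On the arrays that the rule did not use, the members lay slightly above Col-0 Pst in wrky18 and wrky40, far from the double mutant level, and below Col-0 Pst in wrky53. The last of these patterns was shared by the Pst-lowered probe sets that were not restored.

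The same rule was applied with each other mutant array in place of the double mutant. Of the 277 probe sets lower after Pst in Col-0, 51 met it on the double mutant array, 4 on the wrky18 array, 1 on the wrky40 array, 0 on the wrky53 array and 17 on the wrky60 array. The 17 on wrky60 were 6.14% of the 277, near the 6.12% of all non-control probe sets at least 2-fold above Col-0 Pst there. The double mutant array thus gave more such probe sets than the wrky18 and wrky40 arrays together. It also had a larger share of signals at least 2-fold above Col-0 Pst over all probe sets, as given below. The counts depend on the floor: with a floor of 44 they were 35 on the double mutant array, 1 on wrky18, 0 on wrky40 and 3 on wrky60, and with a floor of 11 the double mutant count was 87. All these counts share the Col-0 Pst and Col-0 MgCl2 arrays, and with 1 array each the difference between genotypes was not tested. As a background over all non-control probe sets, the double mutant exceeded Col-0 Pst by 2-fold or more in 0.954%. This share was 0.114% for wrky18, 0.0879% for wrky40 and 0.158% for wrky53. How far the counts above follow these shares was not tested. Col-0 Pst lay 2-fold or more below Col-0 MgCl2 in 1.22%. A signal that is low on the Col-0 Pst array enters both ratios, so the same low reading favours both conditions of the rule.

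A mirror rule asked for the opposite course, a Col-0 Pst signal at least 2-fold above both the mutant and the Col-0 MgCl2 signal, with the mutant below 2 times Col-0 MgCl2. Of 317 probe sets at least 2-fold higher after Pst in Col-0, 6 met it on the double mutant array, 8 on wrky18, 5 on wrky40, 6 on wrky53 and 13 on wrky60. On the side of the raised transcripts the double mutant count thus lay within the range of the single knockouts. Over all non-control probe sets, 0.141% were at least 2-fold below Col-0 Pst on the double mutant array, against 0.954% above it. The shares below it were 0.321% on wrky18, 0.101% on wrky40, 0.497% on wrky53 and 2.54% on wrky60. The double mutant array was thus skewed to higher signals over all probe sets too. The part of this excess at 2-fold in the larger count of the double mutant array on the lowered side was not tested.

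**Figure D1:**
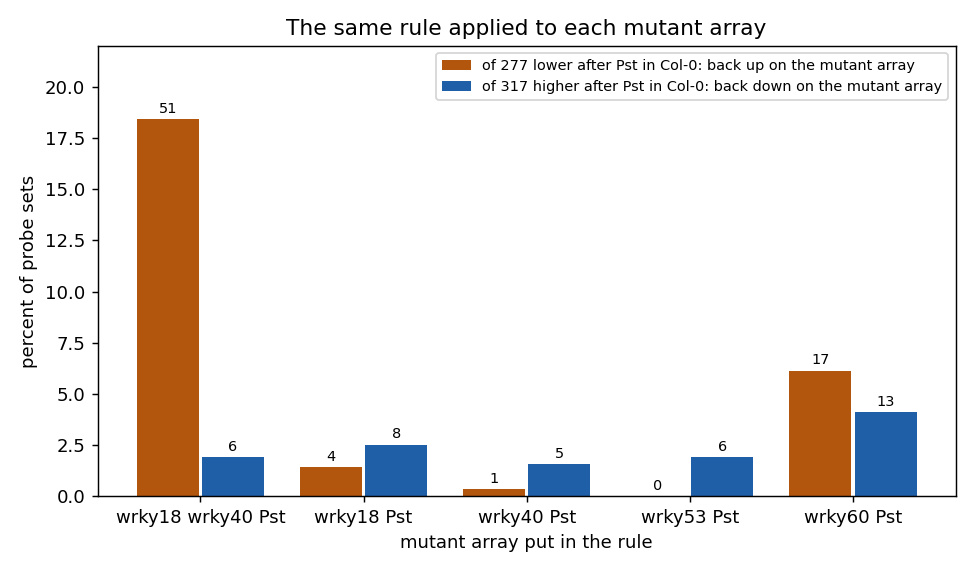
Percent of probe sets (vertical axis) that met the rule when each mutant array (horizontal axis) took the double mutant's place, with orange bars for return of the 277 Pst-lowered and blue bars for return of the 317 Pst-raised probe sets, and the count above each bar. The double mutant has 51 of 277 on the lowered side and 6 of 317 on the raised side; there is 1 array per bar and no error.

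Signals of the 51 members had a median of 163 on the double mutant array, 67.2 on wrky18, 76.0 on wrky40, 37.5 on wrky53 and 67.6 on wrky60, against 53.4 on the Col-0 Pst array and 138 on the Col-0 MgCl2 array. The double mutant array was the highest of all 7 arrays for 24 members and the Col-0 MgCl2 array for 26. Only AT1G26380 was at least 2-fold above Col-0 MgCl2 on the double mutant array, where 1.89% of all non-control probe sets were. The double mutant signal was 2.00-fold to 10.2-fold the Col-0 Pst signal, with a median of 2.32-fold. For 6 members the Col-0 Pst signal was below 22, so that their ratios to it are lower bounds. These are AT5G28630, AT5G52760, AT5G12930, AT4G11000, ZCF37 and the unnamed probe set 248164_at.

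**Figure D2:**
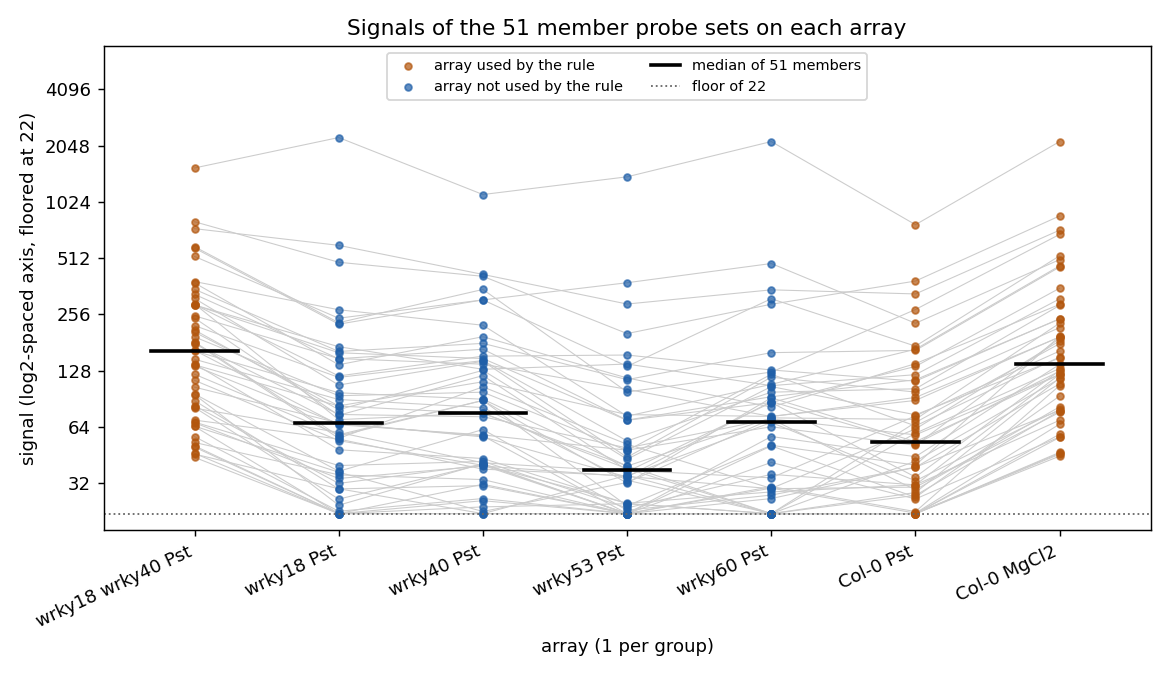
Signal (vertical axis, log scale, values below 22 drawn at 22) of each of the 51 members on the 7 arrays (horizontal axis), with a grey line joining each member, black bars for the medians and orange for arrays that the rule used. The members are high on the double mutant and Col-0 MgCl2 arrays by choice, and on the arrays in blue the median lies between 37.5 for wrky53 and 76.0 for wrky40.

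Oxidoreductases made up 7 of the named members. AT1G26380 encodes an FAD-linked oxidoreductase known in Arabidopsis as FOX1, which acts in the synthesis of an indole defence compound. Its signal was 291 on the double mutant array, 70.0 on wrky18, 76.0 on wrky40, 38.3 on wrky53 and 21.4 on wrky60, against 28.5 on Col-0 Pst and 117 on Col-0 MgCl2. The wrky18 and wrky40 signals thus lay above Col-0 Pst, by 2.45-fold and 2.66-fold, and the wrky60 signal below it. The double mutant was 3.83-fold above the higher of wrky18 and wrky40. AT1G26380 was 1 of only 2 members at least 2-fold higher on the wrky40 array, and 1 of 3 on the wrky18 array.

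Of the 2 neighbouring cytochrome P450 genes, CYP71B24 (AT3G26230) behaved like AT1G26380 in wrky18, and CYP71B23 (AT3G26210) did not. CYP71B24 had a signal of 114 on the double mutant array, 54.1 on wrky18, 39.9 on wrky40, 13.1 on wrky53 and 50.7 on wrky60, against 26.9 on Col-0 Pst and 93.7 on Col-0 MgCl2. CYP71B23 had 589.8 on the double mutant array, 231 on wrky18, 348 on wrky40, 98.5 on wrky53 and 126 on wrky60, against 272 on Col-0 Pst and 687 on Col-0 MgCl2. CYP71B24 was 2.01-fold above Col-0 Pst on the wrky18 array, where CYP71B23 was below it at 0.85-fold. On the wrky53 array CYP71B23 was 2.76-fold below Col-0 Pst, the lowest ratio among the named members with the floor at 22, which hides any lower ratio of members below it. In the TAIR10.1 gene order 1 protein-coding gene lies between the pair, and related P450 genes can share hybridisation, which was not tested.

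The 2 members of the 2-oxoglutarate-dependent oxygenase family were restored to above the mock level. AT2G36690 had a signal of 312 on the double mutant array, 107 on wrky18, 144 on wrky40, 44.1 on wrky53 and 118 on wrky60, against 98.4 on Col-0 Pst and 218 on Col-0 MgCl2. AT5G20400 had 178 on the double mutant array, 74.7 on wrky18, 72.6 on wrky40, 49.4 on wrky53 and 70.7 on wrky60, against 58.1 on Col-0 Pst and 122 on Col-0 MgCl2. Both lay at least 2-fold above the higher single knockout on the double mutant array, by 2.17-fold and 2.39-fold. They differed on the wrky53 array, where AT2G36690 was 2.23-fold below Col-0 Pst and AT5G20400 was 0.85-fold of it.

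The other oxidoreductase members were the peroxidase gene AT4G33420 and the glutaredoxin gene AT3G28850. AT4G33420 had 67.4 on the double mutant array, 33.9 on wrky18, 39.6 on wrky40, 34.8 on wrky53 and 29.9 on wrky60, against 30.5 on Col-0 Pst and 76.7 on Col-0 MgCl2. AT3G28850 had 105 on the double mutant array, 67.2 on wrky18, 56.6 on wrky40, 34.5 on wrky53 and 87.6 on wrky60, against 51.9 on Col-0 Pst and 127 on Col-0 MgCl2. Over the 7 oxidoreductase members the median log2 ratio to Col-0 Pst was 0.36 for wrky18, 0.38 for wrky40 and -0.29 for wrky53. The wrky53 signal lay below the mean of the single knockouts wrky18 and wrky40 for all 7. This was also so for 45 of all 51 members and for 201 of the 226 Pst-lowered probe sets left out by the rule.

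Transferases and lipid enzymes made up 4 named members, and wrky53 was below Col-0 Pst for all 4 of them. So it was for 35 of all 51 members and for 166 of the 226 Pst-lowered probe sets left out by the rule. UGT73B5 (AT2G15480), a glucosyltransferase with a known part in the redox state during the hypersensitive response, had 83.2 on the double mutant array, 31.9 on wrky18, 40.2 on wrky40, 25 on wrky53 and 28.7 on wrky60, against 31.3 on Col-0 Pst and 69.5 on Col-0 MgCl2. The acyltransferase gene AT5G42830 had 211 on the double mutant array, 79.2 on wrky18, 129 on wrky40, 43.0 on wrky53 and 105 on wrky60, against 74.3 on Col-0 Pst and 149.7 on Col-0 MgCl2. AT5G12420, of the wax ester synthase family, had 163 on the double mutant array, 97.5 on wrky18, 90.1 on wrky40, 39.5 on wrky53 and 71.6 on wrky60, against 70.3 on Col-0 Pst and 230.0 on Col-0 MgCl2. In the double mutant UGT73B5 and AT5G42830 were thus above the mock level, while AT5G12420 reached 0.71-fold of it. The lipase-like gene AT5G24210 had 206 on the double mutant array, 83.0 on wrky18, 112 on wrky40, 74.5 on wrky53 and 72.9 on wrky60, against 88.7 on Col-0 Pst and 194 on Col-0 MgCl2.

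Members with a likely part in signalling or in binding ions or proteins numbered 6. AT4G20000 encodes a VQ-motif protein, a family whose members bind WRKY factors. Its signal was 95.4 on the double mutant array, 24.4 on wrky18, 40.7 on wrky40, 1.27 on wrky53 and 30.7 on wrky60, against 22.6 on Col-0 Pst and 107 on Col-0 MgCl2. It had 4.23-fold the Col-0 Pst signal on the double mutant array, the same fold as CYP71B24 and below AT1G26380 among the named members, from a Col-0 Pst signal near the floor.

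AT5G52750 and AT5G52760 are adjacent genes of heavy-metal-associated domain proteins, with no protein-coding gene between them. AT5G52750 had 164 on the double mutant array, 65.7 on wrky18, 58.0 on wrky40, 48.1 on wrky53 and 64.1 on wrky60, against 51 on Col-0 Pst and 191 on Col-0 MgCl2. AT5G52760 had 64.4 on the double mutant array, 16.5 on wrky18, 18.3 on wrky40, 35.3 on wrky53 and 10.9 on wrky60, against 18.8 on Col-0 Pst and 46.3 on Col-0 MgCl2. Both single knockouts stayed within 1.29-fold of Col-0 Pst for this pair. AT5G52760 had the highest wrky53 signal relative to the single knockouts of all members, with a log2 ratio of 0.68 to their mean, which was at the floor.

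The EF-hand calcium-binding gene AT4G27280 had 289 on the double mutant array, 120.0 on wrky18, 153 on wrky40, 155 on wrky53 and 129 on wrky60, against 113 on Col-0 Pst and 243 on Col-0 MgCl2. The RING zinc-finger gene AT1G08050 had 147 on the double mutant array, 89.8 on wrky18, 81.3 on wrky40, 33.2 on wrky53 and 17.3 on wrky60, against 67.7 on Col-0 Pst and 179 on Col-0 MgCl2. These 2 genes stood on opposite sides in wrky53, with AT4G27280 above and AT1G08050 below Col-0 Pst. The ankyrin-repeat gene AT4G11000 had 44 on the double mutant array, 17.0 on wrky18, 31.6 on wrky40, 9.04 on wrky53 and 10.7 on wrky60, against 9.24 on Col-0 Pst and 45.8 on Col-0 MgCl2. Its double mutant signal is 2.00 times the 22 put in place of its Col-0 Pst signal, so this ratio is a lower bound. It stayed a member with a floor of 11, as did all 51.

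The chloroplast-encoded members were psbD, for the D2 protein of photosystem II, and rpl14, for a plastid ribosomal protein. psbD had 1556 on the double mutant array, 2264 on wrky18, 1122 on wrky40, 1396 on wrky53 and 2155 on wrky60, against 773 on Col-0 Pst and 2156 on Col-0 MgCl2. rpl14 had 523 on the double mutant array, 244 on wrky18, 306 on wrky40, 378 on wrky53 and 479.5 on wrky60, against 229.6 on Col-0 Pst and 503 on Col-0 MgCl2. Every mutant array lay above Col-0 Pst for both, unlike most nuclear members in wrky53, and psbD was the 1 member that was not highest on the double mutant array among the 5 Pst arrays other than wrky60. The 69 named chloroplast-encoded genes on the array had median log2 ratios to Col-0 Pst of 0.05 on the double mutant array, 0.41 on wrky18, 0.07 on wrky40, -0.02 on wrky53 and 1.25 on wrky60. On Col-0 MgCl2 the median was 0.14, with 54 of the 69 above Col-0 Pst, against 41 on the double mutant array. Chloroplast transcripts as a whole were thus high on the wrky18 and wrky60 arrays, and the part of this in the psbD and rpl14 values was not tested.

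Of the 10 named members with no role group, AT1G19020 and AT3G21080 had the highest double mutant signals relative to Col-0 Pst. AT1G19020 had 579.8 on the double mutant array, 227 on wrky18, 306 on wrky40, 135 on wrky53 and 311 on wrky60, against 173 on Col-0 Pst and 527 on Col-0 MgCl2. AT3G21080 had 245 on the double mutant array, 73.9 on wrky18, 121 on wrky40, 37.5 on wrky53 and 34.2 on wrky60, against 73.4 on Col-0 Pst and 163 on Col-0 MgCl2. In both, wrky40 stood above wrky18 and wrky53 below Col-0 Pst. AT2G18690 had 737 on the double mutant array, 599.8 on wrky18, 419 on wrky40, 291 on wrky53 and 347 on wrky60, against 329.6 on Col-0 Pst and 723 on Col-0 MgCl2. It was one of the genes in which wrky18 came near the double mutant, which was 1.23-fold above wrky18.

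AT1G51920 had 56.8 on the double mutant array, 22.7 on wrky18, 26.5 on wrky40, 12.2 on wrky53 and 13.5 on wrky60, against 27.5 on Col-0 Pst and 78.1 on Col-0 MgCl2. ZCF37 (AT1G59590) had 49.9 on the double mutant array, 12.3 on wrky18, 25.8 on wrky40, 17.4 on wrky53 and 3.31 on wrky60, against 12.9 on Col-0 Pst and 56.3 on Col-0 MgCl2. AT5G28630 had 50.7 on the double mutant array, 21.2 on wrky18, 14.7 on wrky40, 16.5 on wrky53 and 4.65 on wrky60, against 18 on Col-0 Pst and 46.8 on Col-0 MgCl2. These 3 were near or below the floor on all Pst arrays except the double mutant. Among the other members without a role group, AT3G51660, a homologue of animal macrophage migration inhibitory factor, had 377 on the double mutant array, 138 on wrky18, 195 on wrky40, 117 on wrky53 and 81.8 on wrky60, against 139.6 on Col-0 Pst and 289.7 on Col-0 MgCl2. Its wrky40 signal lay above Col-0 Pst and its wrky18 signal at the Col-0 Pst level. AT3G18250 had 328 on the double mutant array, 148 on wrky18, 167 on wrky40, 69.7 on wrky53 and 92.9 on wrky60, against 114 on Col-0 Pst and 242 on Col-0 MgCl2. AT3G13950 had 69.6 on the double mutant array, 55.1 on wrky18, 38 on wrky40, 35.0 on wrky53 and 67.6 on wrky60, against 33.0 on Col-0 Pst and 79.4 on Col-0 MgCl2. AT5G12930 had 45.8 on the double mutant array, 29.9 on wrky18, 13.0 on wrky40, 13.0 on wrky53 and 2.75 on wrky60, against 16.7 on Col-0 Pst and 58.6 on Col-0 MgCl2. In AT3G13950 and AT5G12930 wrky18 was the higher single knockout, and in AT3G18250 wrky40 was.

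**Figure D3:**
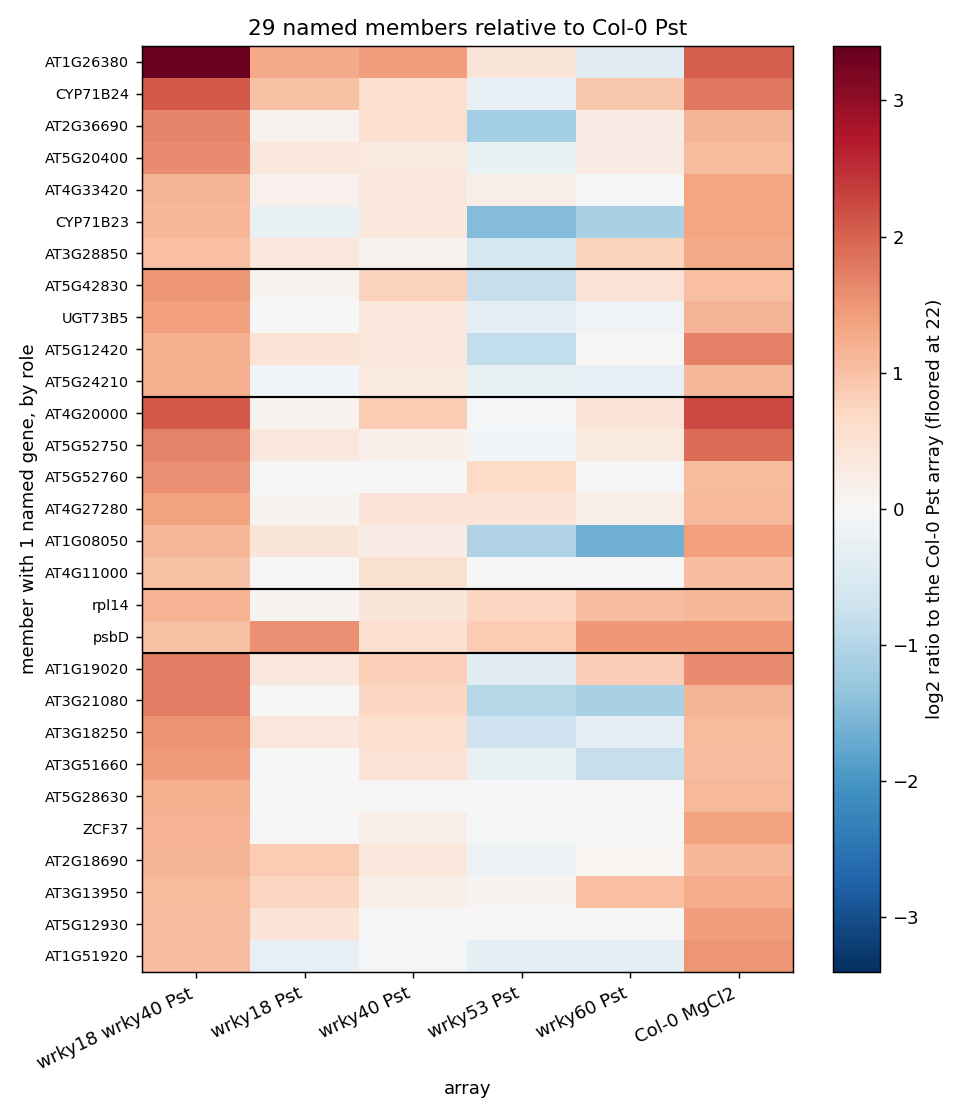
Log2 ratio to the Col-0 Pst array (colour, red higher and blue lower, signals below 22 set to 22) of the 29 named members (rows, split by lines into oxidoreductases, transferases and lipid enzymes, signalling and binding, chloroplast-encoded, and no role given) on the other 6 arrays (columns). The double mutant and Col-0 MgCl2 columns are red by choice, wrky18 and wrky40 are mostly pale red, and wrky53 is below 0 for 18 of 29 and above 0 for 7.

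The 22 members without a single named gene covered a similar range. Their signals ran from 46.2 to 802 on the double mutant array (median 138), from 16.9 to 487 on wrky18 (median 59.0), from 22.6 to 409.5 on wrky40 (median 82.1), from 10.4 to 202 on wrky53 (median 34.6) and from 6.05 to 290.3 on wrky60 (median 63.7). On the Col-0 Pst array they ran from 21.2 to 386 (median 48.9) and on the Col-0 MgCl2 array from 44.7 to 862 (median 135). Their median log2 ratio to Col-0 Pst was 0.32 on wrky18, 0.36 on wrky40 and -0.55 on wrky53, against 0.13, 0.36 and -0.23 for the 29 named members. The probe sets 261450_s_at and 266010_at exceeded the higher single knockout by 2.88-fold and 2.85-fold on the double mutant array, and 266071_at, annotated to both AT2G18680 and AT2G18670, by 1.76-fold.

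On the single knockout arrays, few members came near the double mutant level. On the wrky18 array the members had a median log2 ratio to Col-0 Pst of 0.25, with 38 above 0, 8 below and 5 equal at the floor. Of the 51, 3 were at least 2-fold higher, which are AT1G26380, CYP71B24 and psbD, and 0 were at least 2-fold lower. The background over all non-control probe sets on this array was 0.114% on the higher side and 0.321% on the lower side. On the wrky40 array the median was 0.36, with 45 members above 0 and 3 below. AT1G26380 and the unnamed probe set 254241_at were at least 2-fold higher, 2 of 51, and 0 were at least 2-fold lower, where the shares over all probe sets were 0.0879% and 0.101%. Members were chosen for a low Col-0 Pst signal, which by itself raises every ratio to that array, so these shares cannot be read as an effect of either knockout.

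The 226 Pst-lowered probe sets left out by the rule had median log2 ratios to Col-0 Pst of 0.06 on wrky18 and 0.02 on wrky40. They are no matched control, since the rule separates them from the members by a ratio to the same Col-0 Pst array. The median log2 ratio of Col-0 Pst to Col-0 MgCl2 was -1.34 in the members, against -1.23 in those left out. Above 0.5 of the Col-0 MgCl2 signal lay 27 of 51 members on the wrky40 array (52.9%) and 18 on the wrky18 array (35.3%), against 49 (21.7%) and 71 (31.4%) of the 226 left out. Over all non-control probe sets these shares were 98.6% on wrky40 and 98.4% on wrky18. The wrky40 signal was above the wrky18 signal for 28 members and below it for 21. The wrky18 and wrky40 signals both lay between Col-0 Pst and the double mutant for 35 members. The rule itself set Col-0 Pst and the double mutant at least 2-fold apart, which favours such a place for any other array. The same count over all non-control probe sets was not made, so the 35 is a description.

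Across members, the double mutant signal was 0.687-fold to 3.83-fold the higher single knockout, with a median of 1.8-fold. At least 2-fold above the higher single were 16 members, where 0.356% of all non-control probe sets were. The members were chosen for high double mutant signals, so this count is a description. The log2 change of the double mutant from Col-0 Pst exceeded the sum of the changes of both singles for 48 of 51 members, by a median of 0.66. The same count over all non-control probe sets was not made, so the 48 cannot be read as a joint effect of both knockouts. The choice of members also bears on the 0.66, since membership favours a high double mutant reading, which raises it. Membership also favours a low Col-0 Pst reading, which lowers it, because both single changes are taken from that reading too. All 277 probe sets lowered by Pst in Col-0 were found without any mutant array, but they include the 51 members. On these the double mutant had a median log2 ratio of 0.40 to the mean of wrky18 and wrky40, with 229 above 0 and 47 below, against a median of 0.00 over all non-control probe sets. On the 226 left out by the rule the median was 0.31, with 179 above 0 and 46 below. The rule used the double mutant array to split the 277, so these values are a description too.

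On the wrky53 array the members were low. The median log2 ratio to Col-0 Pst was -0.29, with 35 members below 0 and 12 above, although the choice of a low Col-0 Pst signal works towards positive ratios. With a floor of 44 in place of 22 the median was 0.00. At least 2-fold lower were 5 members, CYP71B23, AT1G08050, AT2G36690, 261449_at and 263443_at, and 0 were at least 2-fold higher. Over all probe sets these shares were 0.497% and 0.158%. Among the 226 Pst-lowered probe sets left out by the rule, 48 were at least 2-fold lower and the median was -0.46. With the floor at 22, a probe set with a Col-0 Pst signal below 44 cannot be called at least 2-fold lower. The 5, the 48 and the 0.497% are thus minima. AT4G20000, with 1.27 on wrky53 against 22.6 on Col-0 Pst, is not among the 5 for this reason.

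The comparison of wrky53 with the mean of wrky18 and wrky40 uses none of the arrays that chose the members. Its median log2 ratio over the 51 members was -0.58, with 45 below 0, 5 above and 1 at 0. The wrky53 signal was at least 2-fold below that mean for 17 members and at least 2-fold above it for 0, where 0.664% and 0.4% of all non-control probe sets were. It lay below both single knockouts for 39 members (76.5%), against 30.4% of the 13674 probe sets with a mean signal of at least 22, where the median log2 ratio was 0.03. The 5 exceptions with wrky53 above the mean were AT5G52760, rpl14, AT4G27280, 248164_at and 266071_at. With the floor at 22, the lowest named members were CYP71B23 at -1.53, AT2G36690 at -1.50, AT1G08050 at -1.36 and AT3G21080 at -1.33. This order and the 17 depend on the floor, since 11 members had wrky53 signals below 22. Among these, CYP71B24 at -1.08 and AT4G20000 at -0.52 have only a bound and may lie lower.

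The same was seen in Pst-lowered transcripts that were not restored. The 226 Pst-lowered probe sets left out by the rule had a median log2 ratio of -0.54 in the same comparison, with 52 at least 2-fold lower (23.0%), against -0.58 and 33.3% in the members, and wrky53 lay below both singles for 75.7% of them. That Pst-lowered genes are low on the wrky53 array was already known from earlier work on these arrays, and the values here are no independent support for it.

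**Figure D4:**
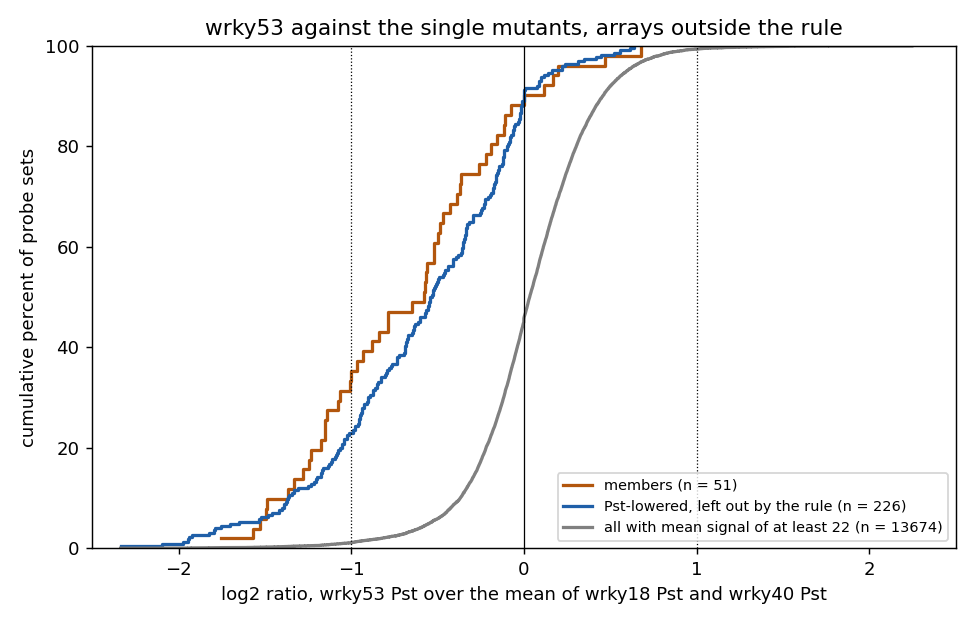
Cumulative percent of probe sets (vertical axis) against the log2 ratio of wrky53 Pst over the mean of wrky18 Pst and wrky40 Pst (horizontal axis, dotted lines at 2-fold), for the 51 members, the 226 Pst-lowered probe sets left out by the rule and the 13674 probe sets with a mean signal of at least 22. The curves of members and left-out probe sets run close together, with medians of -0.58 and -0.54, to the left of the curve for all.

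On the wrky60 array the members were spread without a common direction, with a median log2 ratio to Col-0 Pst of 0.00, 23 above 0 and 22 below. At least 2-fold higher were 5 members, rpl14, psbD, AT3G13950, 259560_at and 266071_at, where 6.12% of all probe sets were. At least 2-fold lower were 5 members, AT1G08050, 265737_at, CYP71B23, AT3G21080 and 254256_at, where 2.54% were. With the floor at 22 these lower counts are minima, as on wrky53. The separate standing of this array bears on all these values, and its part in them was not tested.

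Known defence genes outside the members were examined through gene lists drawn up from general knowledge. Only AT1G26380 of the lists was a member. Of 22 genes of pattern-triggered immunity, 6 had a named and measured probe set. On the double mutant array 0 of these 6 reached 2-fold relative to Col-0 Pst, with a median log2 ratio of 0.50. Over all non-control probe sets 0.954% did, so such a count in a short list says little. Only 1 of the 6 was at least 2-fold lower after Pst in Col-0, so the others could not be members. Of 4 measured WRKY genes, WRKY53, WRKY22 and WRKY47 were at least 2-fold lower after Pst in Col-0 and were not restored, with log2 ratios of the double mutant to Col-0 Pst of -0.16, 0.04 and 0.04. WRKY6 was at least 2-fold higher in the double mutant, with a log2 ratio of 1.12, but missed the rule because its log2 ratio of Col-0 Pst to Col-0 MgCl2 was only -0.78.

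The indole list had 4 measured genes, of which AT1G26380, AT1G26420 and AT1G26410 were at least 2-fold lower after Pst in Col-0. AT1G26420 and AT1G26410, of the same oxidase family as AT1G26380, did not reach 2-fold in the double mutant. AT1G26420 had 244 on the double mutant array, 151 on wrky18, 149.8 on wrky40, 43.5 on wrky53 and 70.0 on wrky60, against 143 on Col-0 Pst and 371 on Col-0 MgCl2. AT1G26410 had 37.9 on the double mutant array, 17.0 on wrky18, 15.1 on wrky40, 2.44 on wrky53 and 33.1 on wrky60, against 3.82 on Col-0 Pst and 47.6 on Col-0 MgCl2. Both had a log2 ratio of 0.78 on the double mutant array, which for AT1G26410 is a lower bound because its Col-0 Pst signal was below 22. Of 4 measured genes of the surface receptor list, all leucine-rich-repeat receptor kinases, AT1G51890, AT1G51805 and AT1G51790 were at least 2-fold lower after Pst in Col-0, and 0 of the 4 reached 2-fold in the double mutant, with a median log2 ratio of the double mutant to Col-0 Pst of 0.12.

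In the list of salicylic acid genes, 4 were measured and 0 reached 2-fold in the double mutant, with a median log2 ratio of 0.67 to Col-0 Pst. Since 0 of the 4 were at least 2-fold lower after Pst in Col-0, they could not be members. AT5G52810, which acts in pipecolic acid synthesis, had the course of the members at a smaller size, with 145.9 on the double mutant array, 86.8 on wrky18, 71.4 on wrky40, 65.4 on wrky53 and 70.5 on wrky60, against 75.1 on Col-0 Pst and 134 on Col-0 MgCl2. The 3 measured jasmonate genes, JRG21, BSMT1 and JMT, were all higher after Pst in Col-0 and had a median log2 ratio of 0.28 in the double mutant. Of 3 measured genes of rapid stress and calcium responses, AT5G39670 and CML38 were at least 2-fold higher in the double mutant than in Col-0 Pst, with log2 ratios of 1.88 and 1.16. The senescence list had no measured probe set. The 4 measured photosynthesis genes encoded in the nucleus had a median of -0.26 and the 3 measured reference genes of -0.08.

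Members and non-members were close together at the thresholds. Just inside the condition on Col-0, 254952_at had a Col-0 MgCl2 signal 2.01 times its Col-0 Pst signal, and just outside it AT4G39670 had 1.99 times. Just inside the condition on the double mutant were AT4G11000 at 2.00 times and psbD at 2.01 times Col-0 Pst, and just outside were 254093_at at 1.99 and AT2G20142 at 1.95 times. The 2.00 of AT4G11000 is a lower bound set by the floor. Of the probe sets that met the other conditions, 165 failed the condition on Col-0, 137 failed the condition on the double mutant relative to Col-0 Pst, and only AT1G49000 failed the condition relative to Col-0 MgCl2, at 0.21 times. A count of members is therefore a count at a fixed fold, in a range where many probe sets lie.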

How the data were processed

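The authors deposited linear signal intensities of 22810 probe sets for each of 7 arrays. The submitters' processing notes name MAS5 without a version. MAS5 scales arrays to a common mean; the 2% trimmed means were 100.0 on every array, and intensities were used as deposited. Of the probe sets, 64 were controls. Of the other 22746, the platform annotation named 1 gene for 13513, several for 503 and none for 8730, and 13436 matched the TAIR10.1 gene table by gene number, which was used for names and gene order.

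Signals below 22 were set to 22 before log2 ratios. With 1 array per group no test was run, and counts at 2-fold are given beside those over all probe sets. The precision is limited by the number of arrays. The members and gene lists were chosen with earlier results of these data known, and role groups after the members were known. Members with 1 named gene were to be given on every array if they had 1 of the 12 highest smaller ratios over Col-0 Pst, stood in a list, were among the 4 highest or 4 lowest of wrky53 against the singles, or were among the 3 highest or 3 lowest of wrky18 or of wrky40 against Col-0 Pst. Other members were described after their values were seen. A list gene was called measured with a mean signal of at least 22. Promoters were not analysed here. The functions were tested on simulated data. Alternatives were floors of 11 and 44, quantile normalization, median centring, other folds and 1 probe set per gene; those without the wrky60 array, without chloroplast-encoded members and against each single knockout were added after seeing the data. Python 3.11.15, numpy 2.4.6, pandas 2.3.3 and matplotlib 3.10.9 were used.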

Additional observations from a re-analysis of the deposited data

Results flagged for a closer look

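The single knockouts lay on opposite sides of Col-0 Pst over the 51 members. Their median log2 ratio to Col-0 Pst was 0.25 for wrky18 and 0.36 for wrky40, both above 0, and -0.29 for wrky53, below 0. The members were chosen for a low Col-0 Pst signal, which by itself raises ratios to that array, so the positive medians cannot be read as an effect of either knockout. The wrky53 median was 0.00 with a floor of 44, and the 226 Pst-lowered probe sets left out by the rule had a wrky53 median of -0.46. Each is 1 array, and the difference between the knockouts was not tested.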

How the results depend on the processing

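No paired analysis was possible because each group has 1 array; for the same reason no replicate could be left out. The planned promoter search was not run. The 51 members became 87 with a floor of 11, 263 at 1.5-fold, 7 at 3-fold and 29 with 1 probe set per named gene; with a floor of 44 there were 35, and 49 of the 51 were kept under quantile normalization and all 51 under median centring. The median log2 ratio of wrky53 to the mean of wrky18 and wrky40 was -0.93 with a floor of 11, -0.37 with a floor of 44, -0.79 for the 45 members with a Col-0 Pst signal of at least 22, -0.69 against wrky18 alone and -0.73 against wrky40 alone (both chosen after seeing the data). The median of wrky53 over Col-0 Pst was -0.44 with a floor of 11 and 0.00 with a floor of 44. That of wrky18 was 0.10 with a floor of 44 and 0.13 with 1 probe set per named gene, and that of wrky60 -0.13 with median centring. With a floor of 44 the same rule gave 1 probe set on wrky18, 0 on wrky40 and 3 on wrky60. No median changed sign under these settings, apart from those at 0; the other 51 values moved by at most 0.1 (log2) or 1.5 times.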
